A study of Mus musculus with 7 samples.

Results

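The transcripts of the mitochondrial oxidative phosphorylation system were followed in mesenchymal stromal cells sorted from the marrow of mice given an inhibitor of fibroblast activation protein (FAPi) or vehicle. Members were the protein-coding genes whose symbols name subunits of respiratory complexes I to V, cytochrome c, and every protein-coding gene of the mitochondrial genome. The rule found 100 members among the 53801 gene IDs of the count tables. There were 36 nuclear genes of complex I, 4 of complex II, 9 of complex III, 20 of complex IV and 17 of complex V, with 1 gene for cytochrome c and 13 mitochondrially encoded genes. Ndufa4 and Ndufa4l2 were placed with complex IV, since Ndufa4 is now known as a subunit of that complex.

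Oxidative phosphorylation passes electrons from NADH (complex I) and succinate (complex II) through ubiquinone to complex III, then through cytochrome c to complex IV, which reduces oxygen. The proton gradient built by complexes I, III and IV drives ATP synthase, complex V. Complexes I, III, IV and V combine subunits made from nuclear genes with subunits made from mitochondrial DNA, whereas complex II and cytochrome c are entirely nuclear. Marrow stromal cells are known to rely much on glycolysis and to raise respiration when they differentiate into osteoblasts or adipocytes.

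All mice were male C57BL/6, 8 weeks old when injections began. The 3 DPBS mice received 100 µl of phosphate-buffered saline each day for 35 days, and the 4 FAPi mice received the inhibitor at 500 µg/kg in the same volume and schedule. The labels do not name the compound. From the limb bones of each mouse 7000 live cells were sorted as Pdgfra-positive and negative for CD45, Ter119 and Tie2, and RNA was read with a modified Smart-seq2 protocol, a full-length method that starts from polyadenylated RNA. Nothing states that libraries with the same replicate number share an animal or a day.

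Libraries held between 7492570 and 10569690 counts. Levels are given as counts scaled to a common library size (CPM) after scaling with TMM factors, which correct for differences in library composition. A floor of 3 counts was worth between 0.269 and 0.419 CPM. The 8 marrow stromal markers, Cxcl12 and Pdgfra among them, were detected in all libraries and summed to between 22790 and 26280 CPM in DPBS and between 21480 and 28520 CPM in FAPi libraries. Erythroid and neutrophil transcripts, from cells the sort should remove, varied more. The 10 erythroid markers summed to 6390, 15600 and 1684 CPM in DPBS replicates 1 to 3 and to between 1558 and 3129 CPM in FAPi libraries. The 10 neutrophil markers summed to 1766, 2622 and 611 CPM in DPBS and to between 184 and 615 CPM in FAPi libraries. The 7 B cell markers summed to 350.1 CPM in DPBS replicate 2 and 337 CPM in FAPi replicate 1, against 25.1 to 38.7 CPM in the other libraries. The 6 leukocyte and endothelial markers, not all of them used in the sort, summed to 358.5 CPM in FAPi replicate 1, against 22.0 to 63.9 CPM elsewhere. The sum in FAPi replicate 1 came mostly from Kdr, which the sort did not use, at 340.3 CPM. Ptprc, which encodes CD45, stood at 0.377 CPM there. None of the erythroid, B cell or leukocyte and endothelial markers and 1 of the neutrophil markers, Ly6g, was at 0 throughout. The 5 brown fat markers, of which 4 including Ucp1 were at 0 in every library, did not exceed 0.951 CPM in sum.

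No member differed between FAPi and DPBS mice at an adjusted p under 0.05 in edgeR's quasi-likelihood test, and neither did any of the 12930 genes tested, so percent called was 0 in both directions. The smallest adjusted p was 0.0989 over all genes and 0.488 among members. DESeq2 also called 0 members, while it called 51 genes lower and 84 genes higher in FAPi libraries, which is 0.394% and 0.65% of the genes tested. Of the 100 members 91 had enough counts to be tested, namely 83 of 87 nuclear and 8 of 13 mitochondrially encoded genes. At an unadjusted p under 0.05, 10 members were lower and 0 higher, against 3.69% of all genes lower and 4.45% higher.

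Most estimates of nuclear members nevertheless lay on the side of lower RNA in FAPi mice. The estimate was below 0 for 71 of 83 nuclear members, against 49.4% of all genes, and their median log2 difference (FAPi minus DPBS) was -0.32, against 0.01 over all genes. The median was -0.33 for complex I, -0.14 for complex II, -0.32 for complex III, -0.31 for complex IV and -0.30 for complex V. For the 8 tested mitochondrially encoded genes it was -0.05, with 5 estimates below 0. With library totals in place of TMM the nuclear median was -0.47, while the median of all genes moved to -0.16. These medians describe the lists and carry no test. In sorted populations, fewer cells of a type and less RNA per cell cannot be told apart.

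**Figure D1:**
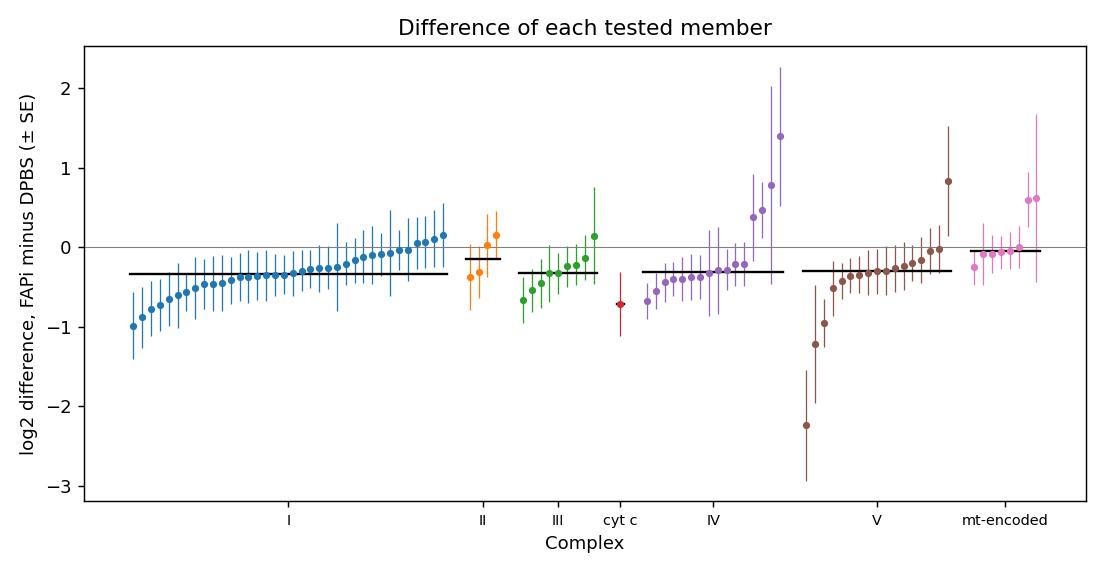
The log2 difference (FAPi minus DPBS) of each of the 91 tested members, ± its standard error (SE), ordered within complexes I to V, cytochrome c (cyt c) and the mitochondrially encoded genes. Black lines mark the medians, which lie near -0.3 for complexes I, III, IV and V and near 0 for the mitochondrially encoded genes.

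The size of this shift depended on DPBS replicate 2. Each member's log2 level was set relative to its own mean over the 7 libraries, and the median over the 83 nuclear members was taken in each library. This relative level was -0.04, 0.50 and 0.07 in DPBS replicates 1 to 3 and -0.25, -0.18, -0.16 and 0.05 in FAPi replicates 1 to 4. DPBS replicate 2 stood highest, and DPBS replicate 1 lay below FAPi replicate 4, so the groups overlapped. DPBS replicate 2 was the highest library for 53 of the 83 nuclear members (63.9%), but for only 17.5% of all genes. It was also the library with the largest erythroid, neutrophil and B cell sums given above, whose part in the result was not tested beyond a fit with the erythroid level as a covariate, in which the nuclear median was -0.21. Without DPBS replicate 2 the nuclear median was -0.13, with 59 of 83 estimates below 0, and the medians were -0.15 for complex I, -0.0035 for complex II, -0.12 for complex III, -0.093 for complex IV and -0.18 for complex V. The mitochondrially encoded median changed sign with single libraries left out, from -0.14 without DPBS replicate 1 to 0.07 without FAPi replicate 2.

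**Figure D2:**
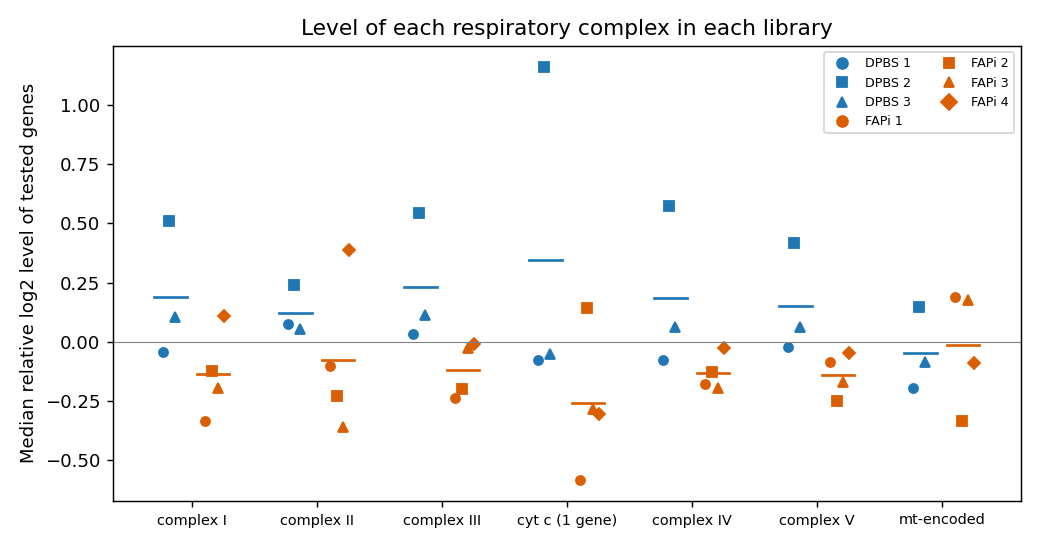
Median relative log2 level of the tested genes of each complex in each library, with horizontal bars at the group means. Blue points are DPBS and orange points FAPi libraries. DPBS replicate 2 (blue square) is the highest library in complexes I, III, IV and V and for cytochrome c. The groups do not overlap in complexes III and V, and they overlap in the other complexes and in the mitochondrially encoded genes.

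By complex, the relative level of complex III was 0.03, 0.54 and 0.11 in DPBS and -0.24, -0.20, -0.02 and -0.01 in FAPi libraries, and that of complex V was -0.02, 0.42 and 0.06 in DPBS and -0.08, -0.25, -0.17 and -0.05 in FAPi libraries. In both complexes every DPBS library lay above every FAPi library, by a narrow margin. For complex I the values were -0.04, 0.51 and 0.10 in DPBS and -0.33, -0.12, -0.20 and 0.11 in FAPi libraries. Complexes I, II and IV overlapped between the groups. Complex II was highest in FAPi replicate 4, at 0.39.

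Nuclear members also have short transcripts. The median of the longest annotated transcript was 1046 bases among the tested nuclear members and 3201 bases among all tested genes. Other genes of under 1000 bases had a median log2 difference of -0.19 (62.5% below 0, n = 1050 genes), those of 1000 to under 2000 bases -0.10, and those of 6000 bases or more 0.14. The 39 members under 1000 bases had a median of -0.32, the 26 of 1000 to under 2000 bases -0.30, the 9 of 2000 to under 3000 bases -0.26 and the 9 longer ones -0.46. With an offset for length and GC content in each library the nuclear median was -0.16, with 63 of 83 estimates below 0. With that offset and without DPBS replicate 2, a setting chosen after seeing the data, it was -0.02, with 43 of 83 below 0.

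**Figure D3:**
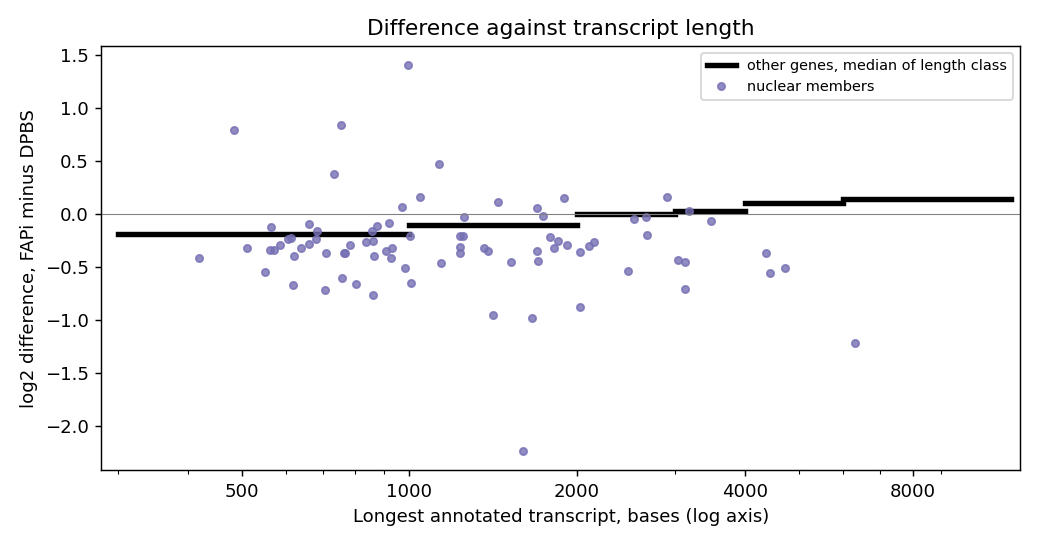
Log2 difference (FAPi minus DPBS) of the 83 tested nuclear members against their longest annotated transcript, on a log axis. Black bars are medians of all other tested genes in 6 length classes, which go from -0.19 under 1000 bases to 0.14 at 6000 bases or more.

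In complex I, the NADH-oxidising entry of the chain, 32 of 36 estimates were below 0 and 0 genes passed the adjusted threshold. Ndufv1 (chromosome 19, 4007384 to 4012806 in mm10) encodes the subunit that holds the flavin where NADH is oxidised. It stood at 51.6, 56.5 and 41.4 CPM in DPBS and 18.8, 33.5, 33.8 and 14.5 CPM in FAPi libraries. All FAPi libraries lay below all DPBS libraries, with a log2 difference of -0.99 ± 0.42 (SE) and an adjusted p of 0.58. Ndufv2, its partner in the NADH dehydrogenase module, showed no such separation. Its levels were 81.0, 127 and 117 CPM against 79.3, 99.4, 106 and 166 CPM, and its log2 difference was 0.06 ± 0.33, or -0.10 with library totals as scaling.

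Accessory subunits of complex I, which stabilise the enzyme without carrying electrons, gave the other separations. Ndufa10 stood at 83.2, 84.1 and 147 CPM in DPBS and 41.7, 70.4, 36.6 and 78.7 CPM in FAPi libraries. No overlap was seen, with FAPi replicate 4 close to DPBS replicate 1 (log2 difference -0.88 ± 0.38, adjusted p 0.582, and -0.56 without DPBS replicate 3). Ndufb7 stood at 253, 327 and 228 CPM in DPBS and 179.5, 166, 174 and 213 CPM in FAPi libraries, again without overlap (-0.56 ± 0.24, adjusted p 0.582). Ndufa8 was at 82.1, 189.9 and 110.0 CPM in DPBS and 57.7, 81.7, 69.3 and 90.2 CPM in FAPi libraries. Here DPBS replicate 1 fell within the FAPi range and DPBS replicate 2 stood far above, and the log2 difference of -0.77 ± 0.34 became -0.37 without DPBS replicate 2. Of the 91 tested members, 11 were lower without overlap between the groups and 0 were higher, all 11 of them nuclear, against 3.95% and 3.39% of all genes. Among other genes under 1000 bases, 7.9% were lower without overlap. The share was 8.31% among other genes under 2000 bases with at least 50 CPM on average. Of 82 tested cytosolic ribosomal protein genes, 15 were lower without overlap and 0 higher.

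Ndufs1, Ndufs3, Ndufs7 and Ndufs8 of complex I had estimates from -0.65 to 0.15. Ndufs8 stood at 78.1, 155 and 87.6 CPM in DPBS and between 52.1 and 80.4 CPM in FAPi libraries, overlapping only through DPBS replicate 1 (-0.65 ± 0.34, and -0.29 without DPBS replicate 2). Ndufs7 ranged from 81.1 to 161 CPM and from 46.8 to 136 CPM (-0.51 ± 0.39). The largest subunit, Ndufs1, was nearly level at 61.8, 62.3 and 91.0 CPM against 52.3, 118, 46.0 and 64.9 CPM (-0.03 ± 0.39, but 0.01 with RLE scaling). Ndufs3 had an estimate above 0 (0.15 ± 0.40), and its value was -0.04 with library totals as scaling. Ndufs3 shares 792 bases at 98.6% identity with the pseudogene Gm12251, so its counts are uncertain. Per kilobase of annotated exon, Ndufa2 was the most abundant complex I member at 674 CPM and Ndufs1 the least at 8.78 CPM. With the principal transcript as length, Ndufa3 was highest at 743 CPM and Ndufb2 lowest at 17.4 CPM.

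Complex II, succinate dehydrogenase, also works in the tricarboxylic acid cycle. Sdha, the flavoprotein that oxidises succinate, was at 65.3, 63.1 and 55.3 CPM in DPBS and 71.4, 57.1, 70.0 and 75.0 CPM in FAPi libraries, and the groups overlapped (0.16 ± 0.30, but -0.01 with library totals). Sdhb, the iron-sulfur subunit, was at 119.8, 237 and 163 CPM against 117, 122, 112 and 207 CPM. The membrane anchor Sdhc was at 54.6, 50.1 and 48.4 CPM against 36.2, 43.6, 39.6 and 88.9 CPM. In both genes FAPi replicate 4 stood well above the other FAPi libraries. The other anchor, Sdhd, ranged from 35.1 to 43.9 CPM in DPBS and from 16.5 to 38.8 CPM in FAPi libraries (-0.37 ± 0.42).

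In complex III, which takes electrons from ubiquinol, 8 of 9 estimates were below 0. Uqcrc1, a core subunit (chromosome 9, 108936633 to 108949623), was at 132, 206 and 146 CPM in DPBS and 93.8, 111, 126 and 113 CPM in FAPi libraries. No FAPi library reached the lowest DPBS library, and the log2 difference was -0.54 ± 0.27 with an adjusted p of 0.648, or -0.33 without DPBS replicate 2. The hinge protein gene Uqcrh, whose product helps cytochrome c1 meet cytochrome c, was at 189, 169 and 135 CPM against 78.3, 87.1, 111 and 140.0 CPM. It overlapped only through FAPi replicate 4 (-0.66 ± 0.29, adjusted p 0.597). Cyc1, cytochrome c1 itself, was high in all libraries, at 1246, 1236 and 1192 CPM in DPBS and 1092, 1367, 1119 and 638 CPM in FAPi libraries. FAPi replicate 4 was its lowest library and FAPi replicate 2 its highest. The Rieske iron-sulfur gene Uqcrfs1 ranged from 39.4 to 61.8 CPM in DPBS and from 31.6 to 52.1 CPM in FAPi libraries. The other core subunit, Uqcrc2, was low and variable, between 6.60 and 33.4 CPM over the 7 libraries, and its estimate was above 0 (0.15 ± 0.61, but -0.02 with library totals). Uqcrc2 shares 504 exonic bases on the opposite strand with Pdzd9, and no label states whether the counting used strand.

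Cytochrome c, the mobile carrier encoded by Cycs, stood at 47.2, 112 and 48.0 CPM in DPBS and 33.0, 54.9, 40.8 and 40.2 CPM in FAPi libraries. DPBS replicate 2 stood far above every other library, and the log2 difference of -0.71 ± 0.40 became -0.17 without it. Cycs has near-identical copies, the longest being Gm10053 with 946 bases at 99.9% identity, so reads can be split between them.

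Complex IV held 4 of the 11 members whose groups did not overlap. Cox6b1, a subunit that joins the enzyme's monomers (chromosome 7, 30616861 to 30626151), stood at 338, 503 and 395 CPM in DPBS and 270.0, 259, 248 and 258 CPM in FAPi libraries. All FAPi libraries lay below the lowest DPBS library, with a log2 difference of -0.67 ± 0.23 and an adjusted p of 0.493. Cox8a (chromosome 19, 7215153 to 7217616) stood at 292, 308 and 225 CPM against 185, 204, 182 and 181 CPM, also without overlap (-0.55 ± 0.23, adjusted p 0.574). Cox6a1 stood at 270.1, 310.2 and 269.7 CPM against 214, 219, 219.9 and 205 CPM, and Cox6c at 296, 444 and 301 CPM against 241, 284, 214 and 285 CPM. These too were separate, with log2 differences of -0.40 ± 0.21 and -0.44 ± 0.25. With the length and GC offset the values were -0.45 for Cox6b1, -0.35 for Cox8a, -0.22 for Cox6a1 and -0.42 for Cox6c. Without DPBS replicate 2 the value of Cox6c was -0.22. Cox6c shares 250 exonic bases on the opposite strand with Vps13b, and no label states whether the counting used strand.

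Several complex IV subunits have a second isoform for other tissues or low oxygen, and these were scarce. The common Cox4i1 stood at 400.4 ± 110.0 CPM per kilobase of principal transcript (SD over the 7 libraries) and the lung isoform Cox4i2 at 27.4 ± 10.8. The testis isoform Cox6b2 was at 37.3 ± 16.1, against 525 ± 154 for Cox6b1. The heart and muscle isoform Cox7a1 was at 12.4 ± 13.8, against 238 ± 48.1 for Cox7a2. Cox7b2, Cox8b and Cox8c had 0 counts in all 7 libraries. The muscle isoform Cox6a2 was at 11.8 CPM in FAPi replicate 1 and at 0.388 CPM or less in the other 6 libraries. The 8 skeletal muscle markers summed to 32.0 CPM in FAPi replicate 1, against 5.17 to 57.8 CPM over all libraries, with Myh1 and Myh4 at 0 throughout.

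A few complex IV genes had estimates above 0. Cox7a2l was at 85.0, 133 and 82.7 CPM in DPBS and 139, 213, 107 and 95.6 CPM in FAPi libraries, with overlap (0.47 ± 0.35, adjusted p 0.769). Without FAPi replicate 2 the value was 0.17. Cox7a2l shares 201 bases at 100% identity with the pseudogene Gm6969, so its counts are uncertain. Ndufa4l2, the hypoxia-inducible relative of Ndufa4, was low, at 3.58, 2.64 and 6.97 CPM against 2.01, 11.8, 7.57 and 25.3 CPM. FAPi replicates 1 and 4 were its lowest and highest libraries, and the log2 difference of 1.40 ± 0.87 had an adjusted p of 0.717. It was 0.71 without FAPi replicate 4 and 0.46 with the replicate number as a block. Ndufa4 itself was at 186, 248 and 222 CPM against 147, 166, 178 and 265 CPM (-0.21 ± 0.27).

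**Figure D4:**
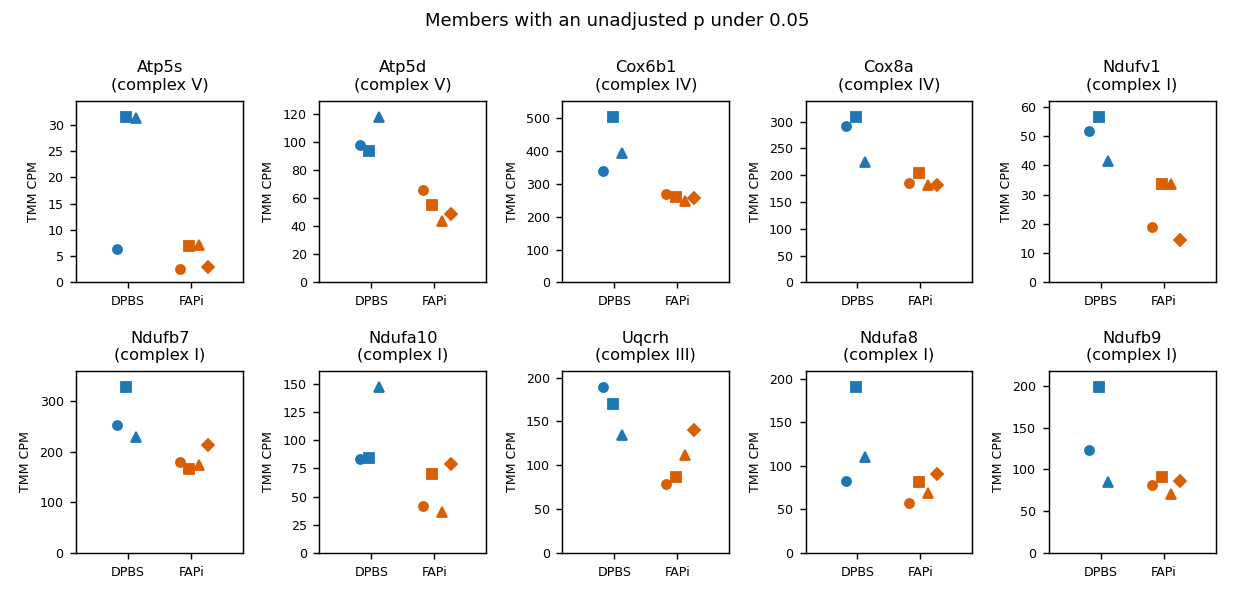
TMM-scaled CPM in each library for the 10 members with an unadjusted p under 0.05, each axis starting at 0. Blue is DPBS and orange FAPi, and circles, squares, triangles and diamonds are replicates 1, 2, 3 and 4. The groups are separate for Atp5d, Cox6b1, Cox8a, Ndufv1, Ndufb7 and Ndufa10 and overlap for Atp5s, Uqcrh, Ndufa8 and Ndufb9.

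In complex V, 16 of 17 estimates were below 0. Atp5d encodes the delta subunit of the central stalk that turns in the catalytic head (chromosome 10, 80138632 to 80145818). It was at 97.9, 93.7 and 118 CPM in DPBS and 66.0, 55.1, 43.7 and 48.4 CPM in FAPi libraries. All FAPi libraries lay below all DPBS libraries, with a log2 difference of -0.95 ± 0.30 and an adjusted p of 0.488. It kept this sign under all alternatives tried, between -1.12 and -0.84. Atp5e, the neighbouring epsilon subunit of that stalk, was at 314, 335 and 280.3 CPM against 220.2, 225, 267 and 255 CPM (-0.36 ± 0.22), and Atp5j, of the peripheral stalk, at 308, 429 and 312 CPM against 279.6, 242, 255 and 269 CPM (-0.42 ± 0.23). Both were separate between the groups, and Atp5j was at -0.25 without DPBS replicate 2. Atp5j shares 397 exonic bases on the opposite strand with Gabpa, and no label states whether the counting used strand.

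The catalytic head holds the alpha and beta subunits around the rotor. Atp5a1, the alpha subunit, was at 275, 284 and 274 CPM against 217, 212, 285 and 254 CPM (-0.20 ± 0.23). Atp5b, the beta subunit that makes ATP, was at 196, 339.9 and 228 CPM against 289, 164, 226 and 152 CPM (-0.29 ± 0.31, and -0.03 without DPBS replicate 2). Atp5c1, the gamma subunit of the rotor, was at 104, 151 and 139 CPM against 128, 163, 143 and 82.5 CPM (-0.02 ± 0.30, but 0.01 with RLE scaling). The groups overlapped for all of these.

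The c ring through which protons pass is encoded by 3 genes with the same mature protein. Per kilobase of annotated exon, Atp5g3 was at 50.4 ± 11.0 CPM (SD over the 7 libraries), Atp5g1 at 40.4 ± 16.1 and Atp5g2 at 6.06 ± 3.99, so the first 2 lay within their spread. With the principal transcript as length, which is 723 bases for Atp5g3 and 4715 for Atp5g1, the levels were 152 ± 33.2, 42.1 ± 16.8 and 13.9 ± 9.14 CPM. Atp5g1 shares 411 bases at 99.8% identity with the pseudogene Gm10039, which had 67 to 341 counts, so its counts are uncertain. Atp5g2 had the 1 estimate above 0 in the complex, at 3.94, 9.40 and 7.63 CPM in DPBS and 11.3, 8.66, 5.82 and 24.3 CPM in FAPi libraries (0.84 ± 0.69). FAPi replicate 4 was highest, and the value was 0.30 without it and 0.32 with the replicate block. Atp5s, a coupling factor gene, had the lowest estimate of all members, -2.24 ± 0.70. Its levels were 6.45, 31.5 and 31.3 CPM against 2.51, 6.85, 7.22 and 2.93 CPM, and DPBS replicate 1 fell within the FAPi range. Atp5l, a membrane subunit, was at 10.8, 52.7 and 9.80 CPM against 14.1, 17.6, 6.64 and 3.77 CPM. Its log2 difference of -1.22 ± 0.74 rested on DPBS replicate 2 and was 0.02 without it. Atp5l has 15 near-identical stretches in other annotated transcripts, so its counts are uncertain.

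Mitochondrially encoded transcripts took 1.09%, 1.37% and 1.14% of counts in DPBS replicates 1 to 3 and 1.29%, 0.732%, 1.18% and 0.966% in FAPi replicates 1 to 4, with 95% Wilson intervals of at most 0.0075 percentage points to either side. The groups overlapped, at 1.20 ± 0.15% (SD, n = 3) and 1.04 ± 0.246% (SD, n = 4). Nuclear members took 1.52%, 1.89% and 1.41% in DPBS and 1.20%, 1.01%, 1.15% and 1.26% in FAPi libraries, which did not overlap. Both shares are of raw library totals, without the TMM correction for composition. With library totals the median log2 difference of all genes was itself -0.16. On the TMM scale the relative level of nuclear members overlapped, at -0.04 in DPBS replicate 1 and 0.05 in FAPi replicate 4.

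The 13 mitochondrially encoded genes fell into well counted genes and genes with almost no counts in any library of either group. mt-Cytb, cytochrome b of complex III, had between 34145 and 70455 counts per library, and mt-Nd1 and mt-Nd2 of complex I had at least 6753 and 12086. By contrast mt-Co3, mt-Nd4l and mt-Atp8 had 0 counts in all 7 libraries, mt-Co2 at most 1 and mt-Atp6 at most 8. The products of mt-Co2 and mt-Co3 are core subunits of complex IV, and those of mt-Atp6 and mt-Atp8 belong to complex V. All of these genes are transcribed from the same strand as mt-Cytb. Such low counts were seen in DPBS and FAPi libraries alike, and their cause was not tested.

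The 5 genes at or near 0 lie close together on the mitochondrial genome, but mt-Nd3, which had counts, lies between mt-Co3 and mt-Nd4l. This stretch has an annotated copy in the nuclear genome. In GENCODE M21 on mm10, the unprocessed pseudogenes between positions 24611535 and 24616197 of chromosome 1 match mitochondrial positions 6390 to 11042. Gm28661 matches mt-Co2 over 681 of 684 bases, Gm10925 matches mt-Atp6 over 678 of 681, Gm28437 matches mt-Co3 over 783 of 784 and Gm10222 matches mt-Nd4l over 294 of 297, each at 100% identity. Gm28438 matches mt-Nd3 over 345 of 348 bases with 1 mismatch. mt-Atp8 has no annotated copy, but its neighbours' copies leave 233 bases between them where mt-Co2 and mt-Atp6 leave 230. The first 80 bases of mt-Co2 and of its copy are shown because no read inside them could tell the loci apart, and the first 80 of mt-Nd3 and its copy because they hold the only base that could, in capitals. Positions are M:7013-7092 (plus strand) for mt-Co2, chr1:24615486-24615565 (minus) for Gm28661, M:9459-9538 (plus) for mt-Nd3 and chr1:24613040-24613119 (minus) for Gm28438.
mt-Co2: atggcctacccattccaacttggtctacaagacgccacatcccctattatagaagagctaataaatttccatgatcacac
Gm28661: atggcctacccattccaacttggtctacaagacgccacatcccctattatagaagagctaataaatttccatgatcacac
mt-Nd3: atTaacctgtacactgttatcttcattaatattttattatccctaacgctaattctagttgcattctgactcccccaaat
Gm28438: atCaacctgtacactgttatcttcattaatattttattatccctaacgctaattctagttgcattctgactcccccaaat

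The copies had few counts as well. Gm28661 had between 0 and 2 counts, Gm28437 between 2 and 15, Gm10925 between 3 and 20, Gm10222 at most 1 and Gm28438 at most 3. mt-Nd3 had 9 to 262 counts, with 23.5, 0.951 and 0.942 CPM in DPBS and 5.15, 18.9, 12.6 and 15.8 CPM in FAPi libraries. DPBS replicate 1 was highest and DPBS replicates 2 and 3 were lowest, and its log2 difference of 0.63 ± 1.06 was 3.76 without DPBS replicate 1 and 0.11 and 0.10 without DPBS replicates 2 and 3. mt-Nd4, with 63.6% of its transcript in the chromosome 1 copy, had 5291 to 10547 counts and mt-Co1, with 31.3%, had 3557 to 7605. mt-Co1 also has a full-length but less similar copy on chromosome 2, Gm13340, which matches all 1545 bases at 97.6% identity with 37 mismatches and had 6 to 22 counts. How reads with more than 1 best position were counted is not stated in the labels, and whether that left these genes at 0 was not tested. The share of counts above holds next to nothing from the 5 genes at or near 0.

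**Figure D5:**
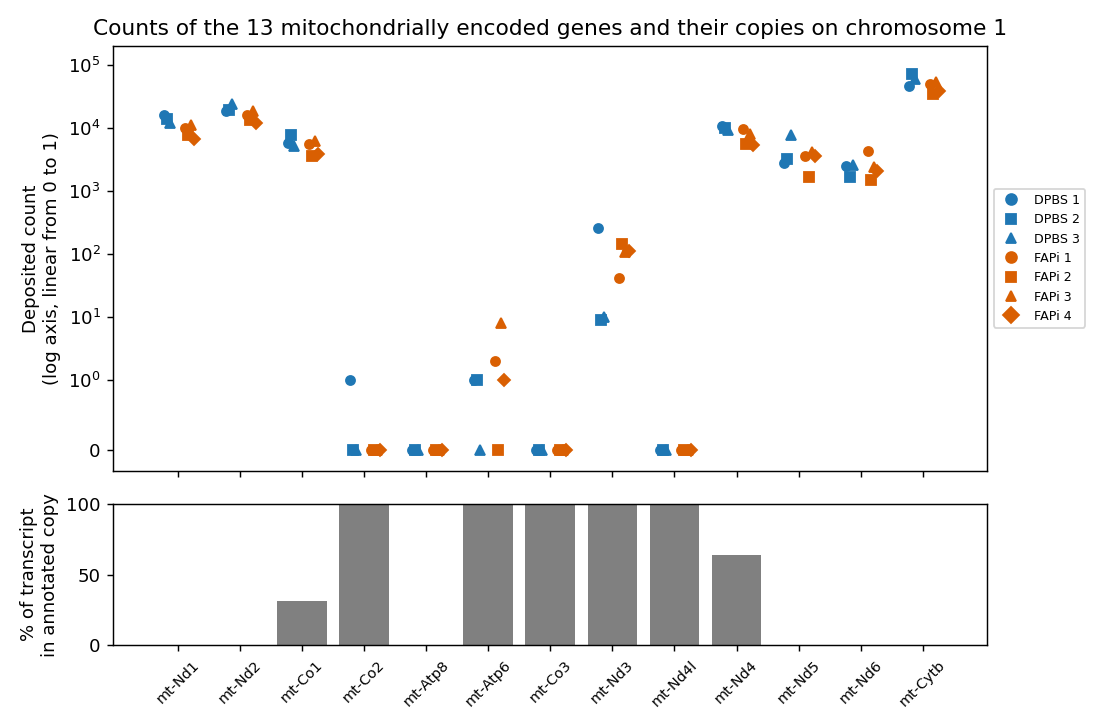
Upper panel: deposited counts of the 13 mitochondrially encoded genes, in genome order, in each library, on an axis that is linear from 0 to 1 and logarithmic above (blue DPBS, orange FAPi). Lower panel: percentage of each transcript that lies in an annotated chromosome 1 copy. mt-Co2, mt-Atp8, mt-Atp6, mt-Co3 and mt-Nd4l have 0 to 8 counts, and all of these except mt-Atp8 have over 98% of their transcript in a copy.

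Among the genes that could be tested, mt-Cytb was at 4149, 7441 and 5669 CPM in DPBS and 6354, 4413, 6225 and 5393 CPM in FAPi libraries (log2 difference -0.04 ± 0.24). Per kilobase it was the highest of the 8 tested mitochondrial transcripts, at 4951 ± 1002 CPM (SD over the 7 libraries). The 5 genes at or near 0 could not be ranked. mt-Nd3 lies almost wholly, and mt-Nd4 and mt-Co1 partly, in the chromosome 1 copy. Per kilobase outside that copy mt-Nd4 was at 1834 CPM and mt-Co1 at 568 CPM. The complex I genes mt-Nd1 (-0.25 ± 0.22), mt-Nd2 (-0.06 ± 0.20), mt-Nd4 (-0.08 ± 0.24) and mt-Nd5 (-0.08 ± 0.39) overlapped between groups, as did mt-Co1 of complex IV (0.01 ± 0.27, but -0.15 with library totals). The sign of mt-Cytb, mt-Nd4, mt-Nd5 and mt-Co1 changed under at least 1 other scaling or fit, and that of mt-Nd2 only when 1 library was left out. mt-Nd6, the 1 protein-coding gene on the other strand, was at 226, 177 and 242 CPM in DPBS and 545, 192, 276 and 289.8 CPM in FAPi libraries. Since no label states whether the counting used strand, reads from the opposite strand may be among its counts. FAPi replicate 1 was highest, and the log2 difference of 0.60 ± 0.35 was 0.23 without it. That library had the raised Kdr level and B cell marker sum given above, whose part was not tested.

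Other mitochondrial gene lists are given for comparison, and 0 of their genes passed the adjusted threshold in edgeR. DESeq2 called 1 of them, the mitochondrial ribosomal gene Mrpl24, with an adjusted p of 0.0496. It stood at 5.73, 3.06 and 5.18 CPM against 13.9, 91.9, 6.41 and 11.3 CPM, separate between the groups with FAPi replicate 2 far above the rest, and edgeR gave a log2 difference of 2.72 ± 0.93 with an adjusted p of 0.501. Among mitochondrial ribosomal proteins, which translate the mitochondrial messages, 48 of 75 estimates were below 0 (median -0.17). Among cytosolic ribosomal proteins, which are short and abundant too, 67 of 82 were below 0 (median -0.28), with Rps26 at 267, 426 and 244 CPM against 145, 142, 146 and 191 CPM. DPBS replicate 2 was again highest and the groups of Rps26 were separate. The relative level of the cytosolic list was 0.11, 0.45 and -0.05 in DPBS and -0.12, -0.16, -0.07 and -0.105 in FAPi libraries. These values did not overlap between the groups. Assembly factors had medians of -0.10 for complex I (8 of 14 below 0), -0.37 for complex II (3 of 4), -0.18 for complex III (3 of 5), -0.27 for complex IV (12 of 17) and 0.62 for complex V (1 of 4). The 10 tested genes of mitochondrial DNA expression had a median of -0.13. The tricarboxylic acid cycle list, 17 genes with pyruvate dehydrogenase, had a median of 0.07, and glycolysis, 14 genes, of 0.16.

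Regulators of mitochondrial biogenesis had estimates mostly above 0, in 5 of 7 genes (median 0.53), with 0 passing the threshold. Nrf1, an activator of many respiratory genes, was at 57.4, 65.0 and 75.0 CPM in DPBS and 75.1, 103, 139 and 62.7 CPM in FAPi libraries, with overlap. Pprc1, a PGC-1-related coactivator, was at 12.1, 12.7 and 21.3 CPM against 22.3, 40.5, 22.0 and 25.8 CPM, all FAPi libraries above all DPBS libraries (0.85 ± 0.46, adjusted p 0.683). Gabpb1, a subunit of the GABP activator, was at 19.5, 17.0 and 15.2 CPM against 11.2, 5.43, 6.29 and 4.19 CPM, separate in the other direction (-1.35 ± 0.57, adjusted p 0.577). Ppargc1a, the main coactivator of mitochondrial biogenesis in brown fat and muscle, did not exceed 0.951 CPM.

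The promoters of nuclear members were searched for letters of factors known to act on respiratory genes. Of 87 nuclear members, 70 matched a RefSeq promoter (GRCm38.p6, 250 bases before to 50 after the start, both strands searched), giving 75 promoters. The NRF1 letters, GCGCA and GCGC with any base between them, occurred in 24.0% of the members' promoters, in 9.96% of those of tested genes and in 4.6% of all promoters. The ETS letters CCGGAAG, which GABP can bind, occurred in 21.3%, 17.5% and 8.86%, the YY1 letters ATGGCGG in 14.7%, 7.89% and 4.05%, and the ERR letters TNAAGGTCA in 4.0%, 0.83% and 1.28%. Matches of different patterns overlapped in 0 of the 75 members' promoters. Members with the NRF1 letters had a median log2 difference of -0.26 (17 tested genes) and those without -0.33 (51 genes). For the ETS letters the medians were -0.39 (16 genes) and -0.31 (52 genes), for the YY1 letters -0.42 (10 genes) and -0.32 (58 genes), and for the ERR letters -0.26 (3 genes) and -0.33 (65 genes). These medians are a description, and a match is not a site.

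The stretches below lie upstream of both the RefSeq and the GENCODE start and show matches, in capitals. Among the members considered, they belong to the 4 lowest in unadjusted p that had 1 promoter entry, 120 such bases and a match in them, with the ETS letters in Uqcrh, Atp5e and Uqcr11 and the NRF1 letters in Cox6a1. The order follows the unadjusted p, and the largest, that of Uqcr11, was 0.384. All are on the minus strand, at chr4:116075072-116075191, chr5:115348982-115349101, chr2:174464106-174464225 and chr10:80406831-80406950 in the order shown.
Uqcrh: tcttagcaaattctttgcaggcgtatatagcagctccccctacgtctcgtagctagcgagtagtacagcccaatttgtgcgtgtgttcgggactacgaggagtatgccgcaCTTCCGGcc
Cox6a1: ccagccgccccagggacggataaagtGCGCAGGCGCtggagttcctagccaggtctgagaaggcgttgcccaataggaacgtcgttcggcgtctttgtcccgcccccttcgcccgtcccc
Atp5e: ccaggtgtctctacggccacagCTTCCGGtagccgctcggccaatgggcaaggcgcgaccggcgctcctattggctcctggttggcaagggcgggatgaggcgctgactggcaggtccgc
Uqcr11: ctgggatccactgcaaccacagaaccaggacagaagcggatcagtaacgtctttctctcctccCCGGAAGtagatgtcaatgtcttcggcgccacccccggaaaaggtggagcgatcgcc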

How the data were processed

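RNA was measured in 3 DPBS and 4 FAPi libraries. The authors deposited whole-number read counts per gene for 53801 versioned Ensembl IDs. Per the submitters' processing notes, STAR, HTSeq and mm10 were used. Versions, annotation, strand setting and the rule for reads with several positions are not stated there or in the labels. The file names carry a duplicate-removal tag that no protocol describes, and its effect on short abundant genes was not tested. The deposited CPM tables were not used.

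IDs were matched to GENCODE M21 (53706 matched). In R 4.3.3, filterByExpr (minimum count 10), TMM scaling and edgeR 4.0.16's robust quasi-likelihood test were applied to all genes together, with Benjamini-Hochberg adjustment over the 12930 genes tested and a threshold of 0.05. An SE is the absolute log2 difference over the square root of F. Relative levels used log2(CPM + 0.5). Levels per kilobase used the union of annotated exons unless the principal transcript is named. Copies were sought among annotated transcripts with BLAST 2.17.0 (at least 97% identity over 100 bases), and intervals and floors cover counting error only. Not every member with a copy or an opposite-strand overlap is named as such.

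The members and lists were chosen with earlier results of these data known. Named were all mitochondrial genes, catalytic subunits, paired isoforms, the 4 smallest p-values and the most and least abundant member of each complex, and up to 2 genes of each other list; 1 gene of this set is not reported here. Ndufa3, Ndufb2, Ndufb9, Atp5e, Nrf1, Ppargc1a and the brown fat markers fall outside that rule and were chosen with their values in view. The alternatives were RLE scaling, library totals, scaling without mitochondrial genes, DESeq2 1.42.0, limma 3.58.1 voom, no filter, a replicate block, each library left out, a length and GC offset (mgcv 1.9.3) and an erythroid covariate. On simulated data for 4 against 3 libraries with 12930 genes, edgeR called 0% of genes changed 2-fold, 18% at 4-fold, 56% at 8-fold and 74% at 16-fold.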

Additional observations from a re-analysis of the deposited data

Results flagged for a closer look

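In 66 checks of the FAPi group for 1 library far from the other 3 (by Dixon's 95% critical value), 3 were marked, and chance marks about 1 in 20 groups. Sdhb was at 207 CPM in FAPi replicate 4, with the nearest other FAPi library at 122 CPM. Sdhc was at 88.9 CPM in the same library, with the nearest other at 43.6 CPM. Cox8a was at 204 CPM in FAPi replicate 2, with the nearest other at 185 CPM.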

How the results depend on the processing

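Over every alternative run, 0 members were called in either direction. For all genes DESeq2 called 51 lower and 84 higher, the fit with no filter 1 and 5, limma voom 0 and 1, and fits without 1 library 0 to 1 lower and 0 to 2 higher. Members lower at an unadjusted p under 0.05, 10 in the report, numbered 3 with DESeq2, 5 with RLE scaling, 18 with library totals, 3 with the erythroid covariate and 4 with the length and GC offset. Median log2 differences that moved by more than the spread between libraries were complex II under the replicate block (-0.44), complex III with the erythroid covariate (-0.12) and complex V with library totals (-0.46). With 1 library left out, complex II ranged from -0.44 to -0.0035, complex III from -0.38 to -0.12 and cytochrome c from -0.93 to -0.17, each upper value without DPBS replicate 2, and the lowest value of complex II without FAPi replicate 4. The nuclear median ranged from -0.43 to -0.13, complex I from -0.44 to -0.15, complex IV from -0.43 to -0.093, complex V from -0.43 to -0.18 and the mitochondrially encoded median from -0.14 to 0.075. With the length and GC offset and without DPBS replicate 2, chosen after seeing the data, medians were -0.058 (complex I), 0.054 (complex III), -0.14 (cytochrome c), 0.032 (complex IV), -0.10 (complex V), 0.17 (mitochondrially encoded) and -0.017 (nuclear). The cause was not tested.

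Same-numbered libraries had correlations of deviations of -0.0049, -0.017 and -0.050, so the counts showed no shared signal by replicate number. Such values cannot settle whether these libraries shared a day, which is not stated. The replicate block called 0 members and moved the nuclear median to -0.39. Members with estimates near 0 changed sign. Under the block these were Sdhc (-0.36), Ndufs3 (-0.20), Ndufv2 (-0.17), Uqcrc2 (-0.036), mt-Cytb (0.0011) and Atp5c1 (0.16). With library totals they were Sdhc (-0.16), mt-Co1 (-0.15), Ndufv2 (-0.10), Ndufs3 (-0.037), Uqcrc2 (-0.024) and Sdha (-0.013). With the erythroid covariate they were Sdhc (-0.18), Ndufv2 (-0.044), Ndufs3 (-0.013), Cox7b (0.011), mt-Nd4 (0.023), mt-Cytb (0.061) and Atp5c1 (0.083). Ndufs1 was at 0.013 with RLE scaling and 0.012 with DESeq2, and Atp5c1 at 0.013 with both. With voom Sdhc was at -0.12, Atp5c1 at 0.041, mt-Cytb at 0.062 and mt-Nd5 at 0.067, and with the length and GC offset Atp5c1 was at 0.090 and mt-Cytb at 0.073.

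Leaving out 1 library, signs changed in Ndufs1 (-0.41 to 0.18), Ndufs3 (-0.11 to 0.34), Ndufv2 (-0.18 to 0.19), Sdhc (-0.35 to 0.17), Uqcrc2 (-0.27 to 0.59), Cox4i2 (-0.0048 to 0.90), Cox6b2 (-0.60 to 0.034), Cox7a1 (-0.16 to 2.99), Cox7b (-0.36 to 0.087), Atp5c1 (-0.17 to 0.16), Atp5l (-1.60 to 0.025), mt-Co1 (-0.13 to 0.27), mt-Cytb (-0.23 to 0.19), mt-Nd2 (-0.18 to 0.027), mt-Nd4 (-0.26 to 0.0064) and mt-Nd5 (-0.37 to 0.48).

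Levels per kilobase moved with the length used. With the longest and with the principal transcript, Ndufs1 was at 26.7 CPM, Sdhb at 125 and 134.8 CPM and Sdha at 22.5 CPM. With the principal transcript, chosen after seeing the data, Uqcr11 was at 859, Cox5a at 25.3, Atp5k at 663 and Atp5l at 30.3 CPM. The YY1 letters were in 6.67% of members' promoters when only the 250 bases before the start were searched. With protein-coding counts as denominator, the mitochondrially encoded share was 1.25% in DPBS and 1.09% in FAPi libraries.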
